A study of Mus musculus with 8 samples.

Results

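The genes described here are 37 mouse genes of vitamin B6 metabolism and of enzymes that use its active form, pyridoxal 5′-phosphate (PLP). They were taken by gene symbol from a list of such genes, and all 37 were found among the 55487 genes of the count table. Of the 37, 29 passed the filter on low counts and were tested among 12060 genes. The question was which of them aged muscle stem cells express, and whether their expression differed when the cells were given a form of vitamin B6 in combination with nicotinamide.

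Muscle stem cells (MuSCs, also called satellite cells) were isolated by FACS from aged mice, seeded in growth medium and kept in culture for 72 hours. The study's methods describe its aged mice as wild-type C57BL/6JRj males of 23 to 25 months, and its supplement gives 23 to 24 months for an assay of cultured MuSCs. Cells were given 1% DMSO as vehicle, or nicotinamide (NAM) together with pyridoxine (PN), for which the labels state 1 mM, and whether the NAM/PN wells also held DMSO is not given in the sources used here. Cells of 8 mice formed 4 pools of 2 mice, and each pool gave a vehicle and a NAM/PN library, so that libraries with the same pool number share their mice and each condition has 4 libraries. Neither NAM nor PN was given alone in these libraries, and a difference cannot be assigned to either compound. Sequencing read the 3′ ends of transcripts, and levels are given in CPM, counts per 1000000 of the normalized library size.

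Vitamin B6 enters cells as pyridoxine, pyridoxal or pyridoxamine. Pyridoxal kinase phosphorylates these forms on the way to PLP, and PLP phosphatase returns PLP to pyridoxal. PLP is held in the active site of aminotransferases, decarboxylases, serine hydroxymethyltransferases and transsulfuration enzymes, and it is also bound by glycogen phosphorylase, which stores much of the vitamin B6 of skeletal muscle.

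Library totals lay between 6472484 and 10163101 counts. The floor of detection was set at 3 counts per library, or 0.295 to 0.464 CPM depending on the library, and covers counting error only. A single ribosomal RNA gene took 18.7% of the counts of vehicle replicate 3, against 5.22% to 11.6% of those of the other 7 libraries. Of 8 markers of MuSCs and myoblasts, 7 were tested and 0 were called, with Pax7, which marks satellite cells, at 196 ± 36.2 CPM in vehicle libraries and 173 ± 50.3 CPM in NAM/PN libraries (SD over 4 libraries each). All 7 had a log2 fold change below 0 (median -0.19), and Des and Cdh15 were lower in all 4 pools. The smallest adjusted p of the list was that of Des (log2 fold change -0.41, edgeR adjusted p = 0.46). The summed level of this list lay between 2732 and 3223 CPM in vehicle libraries and between 2187 and 2745 CPM in NAM/PN libraries, and its part in the results on the B6 genes was not tested. Summed over each list, endothelial markers reached at most 7.25 CPM, fibro-adipogenic markers 1.72 CPM and immune markers 7.58 CPM in any library, and the mural list lay between 33.4 and 88.8 CPM, most of it from Notch3 and Cspg4. Of 8 markers of differentiating myocytes, 6 were called lower with NAM/PN, and 7 were lower in all 4 pools.

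Levels of the B6 genes differed widely. The 5 members with a mean of 100 CPM or more were Got2, Shmt2, Psat1, Sgpl1 and Odc1, 16 lay between 10 and 100 CPM, and 8 of those tested were under 10 CPM. The median of the 29 tested members was 26.8 CPM, against 24.2 CPM for all 12060 tested genes. The 8 members that failed the filter were Gldc, Cbs, Aadat, Abat, Hdc, Gad1, Pygl and Mocos. Hdc, which makes histamine, and Gad1, which makes GABA, had 0 counts in all 8 libraries. Gldc of the glycine cleavage system had 10 counts, all in vehicle replicate 4, Cbs, the entry enzyme of transsulfuration, had 15 counts in vehicle replicates 1 and 3, and Aadat, a kynurenine aminotransferase, had 4 counts in NAM/PN replicate 3. Abat, which breaks down GABA, had 33 counts in all, and Pygl, the liver glycogen phosphorylase, had 76.

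**Figure D1:**
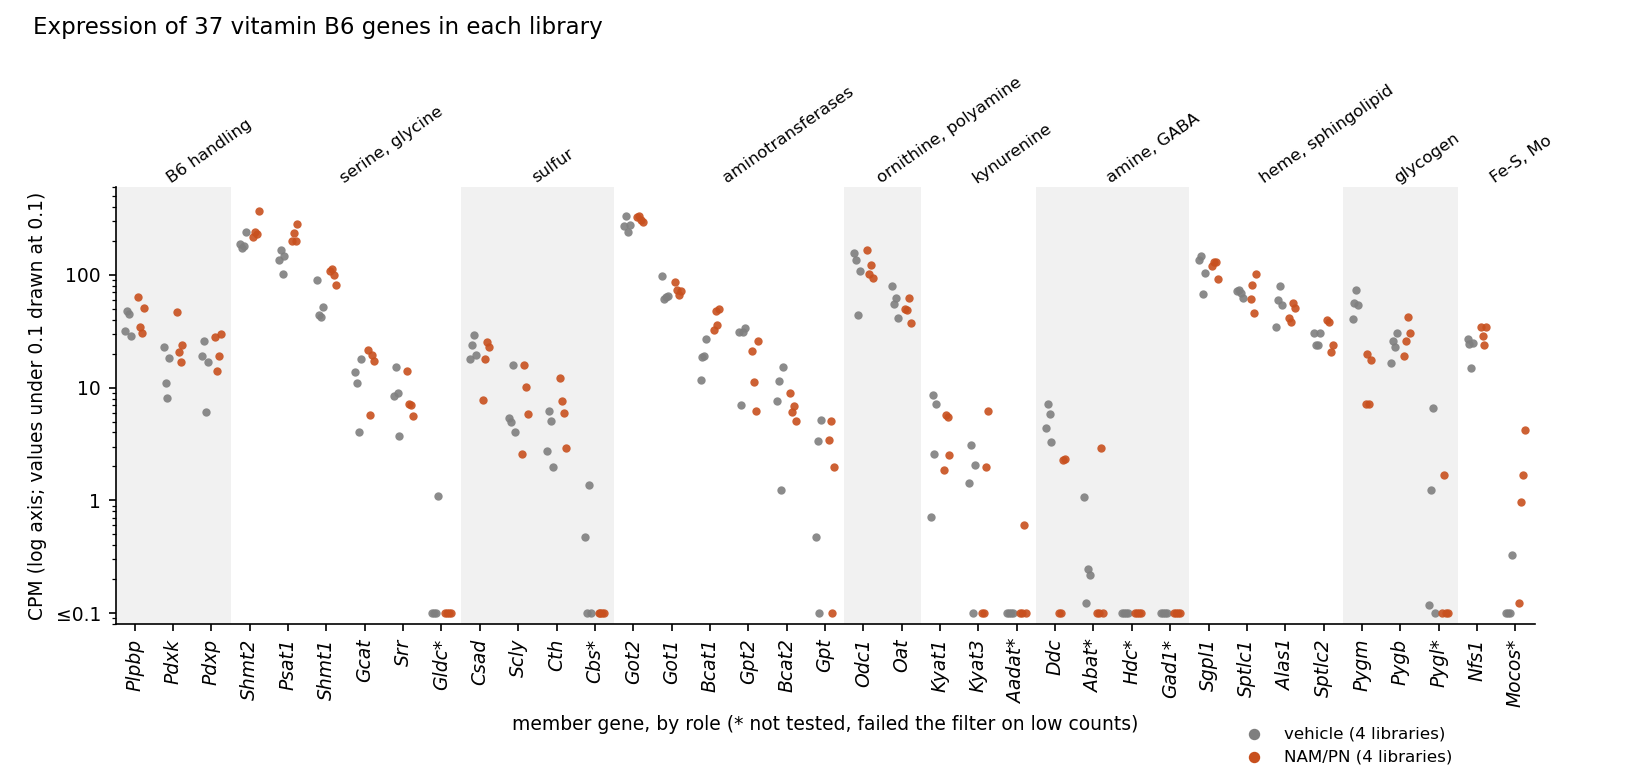
CPM of the 37 members in each library on a log axis, with the members grouped by role and ordered by level within a role. Grey points are the 4 vehicle libraries and orange points the 4 NAM/PN libraries, values under 0.1 CPM are drawn at 0.1, and an asterisk marks the 8 members that failed the filter, among them Hdc and Gad1 at 0 counts throughout.

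NAM/PN lowered 1 of the 29 tested members, the muscle glycogen phosphorylase Pygm, and raised 0 of them at an adjusted p under 0.05 (edgeR quasi-likelihood test, adjusted over all 12060 genes), whereas DESeq2 called Psat1 higher as well. Among all tested genes 1.28% were called at this threshold, 0.282% higher and 0.995% lower. The members were chosen with earlier results of these data known, so their shares beside those of all genes are descriptions. At an unadjusted p under 0.05, 4 members were higher (13.8% of those tested, against 3.96% of all genes), namely Psat1, Shmt1, Shmt2 and Bcat1, and 1 was lower (3.45%, against 5.32%), namely Pygm. The NAM/PN libraries lay entirely above the vehicle libraries for 2 members, Psat1 and Bcat1 (6.9%, against 2.79% of all genes). For 2 others, Pygm and Ddc, they lay entirely below (6.9%, against 4.42%). Ddc passed the filter through its vehicle libraries, with 0 counts in NAM/PN replicates 1 and 2. Its place in this count therefore gives no support to a difference. Fold changes were above 0 for 20 of the 29 (69%, against 49.8% of all genes), with a median log2 fold change of 0.17, against -0.0022 for all genes. Without vehicle replicate 3 this count was 15 of 29, and the median was 0.06. Leaving out NAM/PN replicate 1, NAM/PN replicate 2 or pool 3 also gave a median of 0.06 to 0.07, with counts of 18, 18 and 17, and over the other fits without 1 library or 1 pool the median ranged from 0.10 without vehicle replicate 4 to 0.26 without vehicle replicate 2.

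Summed over all 37 members, CPM lay between 1275 and 1589 in vehicle libraries and between 1612 and 1837 in NAM/PN libraries, and the lowest sum was that of vehicle replicate 3, without which the vehicle libraries lay between 1499 and 1589. This sum is a description and was not tested. The 95% interval of the fold change stayed within 2-fold in both directions for 10 of the 29 tested members, so that for the other 19 a change of 2-fold or more was not excluded by these libraries.

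**Figure D2:**
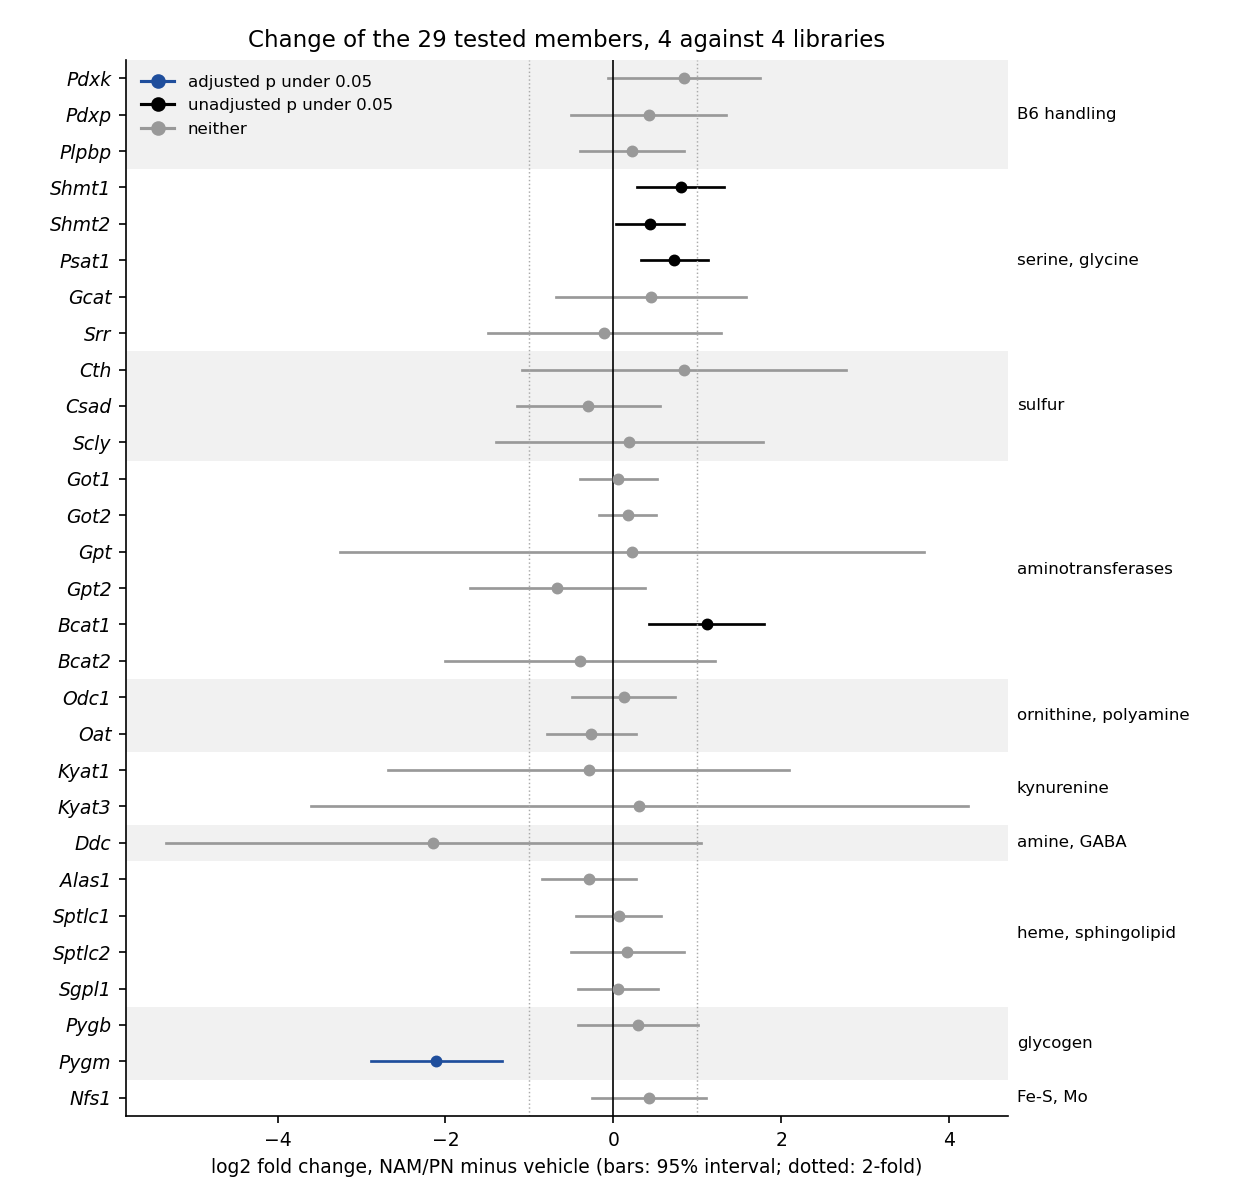
Log2 fold change (NAM/PN minus vehicle) of the 29 tested members with 95% intervals, grouped by role, with dotted lines at 2-fold. Pygm at -2.11 is the member with an adjusted p under 0.05 (blue), and Psat1, Shmt1, Shmt2 and Bcat1 (black) have an unadjusted p under 0.05.

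The 3 members that handle the vitamin itself were expressed in all 8 libraries, and none of them was called. Pdxk (ENSMUSG00000032788, chromosome 10 of GRCm38 from 78436744 to 78464975, minus strand), the pyridoxal kinase that traps the vitamin in the cell, had 23, 10.9, 8.03 and 18.3 CPM in vehicle replicates 1 to 4 and 46.7, 20.8, 16.9 and 23.9 CPM in NAM/PN replicates 1 to 4. Pdxk was higher with NAM/PN in all 4 pools, and the groups overlapped. Its log2 fold change was 0.85 (standard error 0.43, 95% interval -0.06 to 1.75), with an unadjusted p of 0.0655 and an adjusted p of 0.597 in the edgeR test (0.0451 and 0.515 in the paired fit with the pool as a replicate block). Without NAM/PN replicate 1 the log2 fold change of Pdxk was 0.45 (adjusted p = 0.928). Pool 1 was the highest within each condition, and its vehicle library lay within the range of the NAM/PN libraries of the other pools.

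Pdxp (ENSMUSG00000116165, chromosome 15 from 78913919 to 78919517, plus strand), the phosphatase that removes the phosphate of PLP, had 19.2, 25.9, 6.05 and 16.8 CPM in vehicle libraries and 28.1, 13.9, 19 and 29.9 CPM in NAM/PN libraries. It was higher with NAM/PN in 3 pools and lower in pool 2, with a log2 fold change of 0.42 (standard error 0.44, edgeR adjusted p = 0.898), which ranged from 0.14 without vehicle replicate 3 to 0.87 without pool 2 when 1 library or 1 pool was left out. Plpbp (ENSMUSG00000031485, chromosome 8 from 27042555 to 27056132, plus strand), a PLP-binding protein of B6 homeostasis, had 32, 48.1, 45 and 28.9 CPM in vehicle libraries and 63.9, 34.7, 30.8 and 50.7 CPM in NAM/PN libraries. Plpbp was higher in pools 1 and 4 and lower in pools 2 and 3, with a log2 fold change of 0.23 (standard error 0.29, edgeR adjusted p = 0.932), which was smaller than the spread between libraries.

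Of 7 other genes listed under B6 handling and not among the 37 members, 5 were tested and 0 were called. Slc19a3 of this list had 0 counts, and whether its mouse protein carries vitamin B6 was not tested. The phosphatase Phospho2, named after its values were seen, had 25.7, 30.9, 26.7 and 26.9 CPM in vehicle libraries and 16, 18.4, 21.3 and 5.04 CPM in NAM/PN libraries. Its NAM/PN libraries lay below all vehicle libraries, with a log2 fold change of -0.86 (standard error 0.41, edgeR unadjusted p = 0.0517 and adjusted p = 0.549, or 0.0349 and 0.461 with the replicate block).

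Of the 4 members that were higher at an unadjusted p under 0.05, 3 belong to serine and glycine metabolism. Psat1 (ENSMUSG00000024640, chromosome 19 from 15904678 to 15947337, minus strand), the PLP-dependent aminotransferase of serine synthesis, had 137, 165, 102 and 148 CPM in vehicle libraries and 198, 238, 199 and 281 CPM in NAM/PN libraries. Every NAM/PN library was above every vehicle library. Its log2 fold change was 0.73 (standard error 0.19, 1.66-fold with a 95% interval of 1.25 to 2.19), with an unadjusted p of 0.00123 and an adjusted p of 0.0736 in edgeR, which did not pass the threshold. Psat1 was called by DESeq2 (adjusted p = 0.0133) and in edgeR without the filter on low counts (adjusted p = 0.0184), and over all alternatives its adjusted p ranged from 0.0133 to 0.283.

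Serine hydroxymethyltransferases convert serine to glycine and load a one-carbon unit on folate. The cytosolic enzyme Shmt1 (ENSMUSG00000020534, chromosome 11 from 60788104 to 60811718, minus strand) had 90.8, 44.2, 42.6 and 52.3 CPM in vehicle libraries and 109, 112, 99.7 and 80.9 CPM in NAM/PN libraries. It was higher in all 4 pools, and the groups overlapped through vehicle replicate 1, which lay above NAM/PN replicate 4. The log2 fold change of Shmt1 was 0.80 (standard error 0.25, edgeR adjusted p = 0.157). Without vehicle replicate 1 it was 1.11 with an edgeR adjusted p of 0.0249. Shmt1 was also called with all 8 libraries when the filter on low counts was dropped (0.79, adjusted p = 0.0372). Over all 17 alternatives its adjusted p ranged from 0.0249 to 0.695, and only those 2 called it. Shmt1 overlaps Smcr8 on the other strand, and the strand setting of the counting is not given in the sources used here.

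The mitochondrial enzyme Shmt2 (ENSMUSG00000025403, chromosome 10 from 127517123 to 127522444, minus strand) had 189, 174, 179 and 241 CPM in vehicle libraries and 217, 241, 232 and 367 CPM in NAM/PN libraries. It was higher in all 4 pools, with a log2 fold change of 0.44 (standard error 0.19, edgeR adjusted p = 0.48), and pool 4 was the highest in both conditions. Without NAM/PN replicate 4 the log2 fold change of Shmt2 was 0.23. Gcat, which splits 2-amino-3-ketobutyrate in threonine breakdown, was at 11.7 ± 5.8 CPM in vehicle libraries and 16 ± 7.05 CPM in NAM/PN libraries, and Srr, the serine racemase, at 9.07 ± 4.75 and 8.41 ± 3.73 CPM (SD, n = 4 each). The log2 fold changes of Gcat and Srr were 0.45 and -0.11, both smaller than their standard errors of 0.54 and 0.66. Srr overlaps Tsr1 and Smg6 on the other strand, which had many more counts.

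Of the 16 partner genes of serine and one-carbon metabolism, 14 were tested, 0 were called and 10 had a log2 fold change above 0, with a median of 0.12. Phgdh and Psph, the enzymes before and after Psat1 in serine synthesis, were named after their values were seen. Phgdh was at 24.3 ± 9.77 CPM in vehicle libraries and 43.9 ± 16.1 CPM in NAM/PN libraries (SD over 4 libraries each), with a fold change on the log2 scale of 0.85 (standard error 0.36) with an edgeR adjusted p of 0.422 and a higher value in 3 of 4 pools. Psph had a log2 fold change of 0.35 (standard error 0.31, edgeR adjusted p = 0.867).

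**Figure D3:**
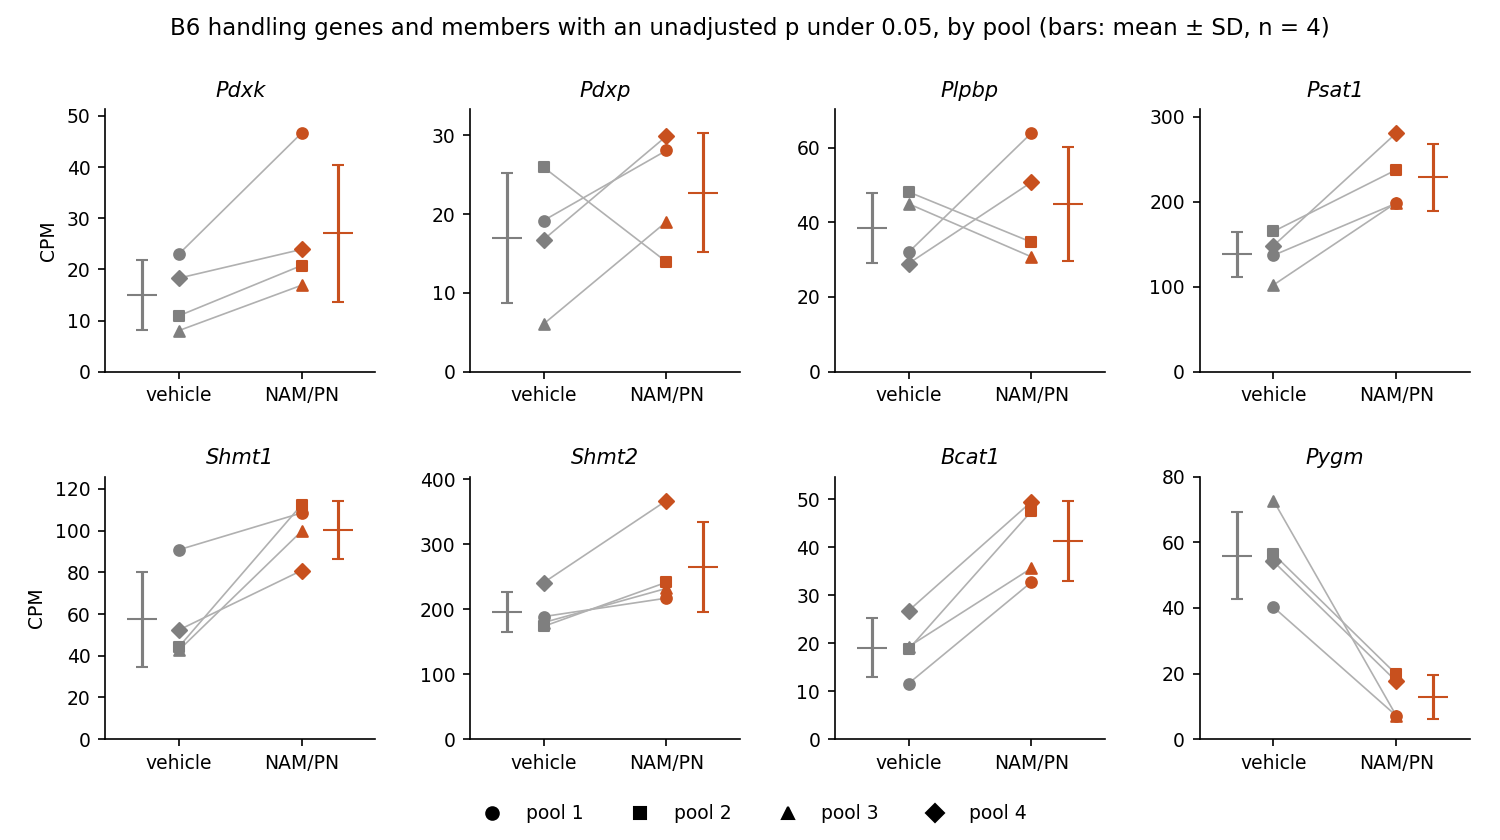
CPM in each library for the 3 B6 handling genes and the 5 members with an unadjusted p under 0.05, with the libraries of a pool joined by a line and the mean ± SD (n = 4) beside each condition. Psat1 and Bcat1 are higher and Pygm is lower with NAM/PN without overlap, whereas Pdxp and Plpbp move in different directions in different pools.

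Among the aminotransferases of aspartate, alanine and branched-chain amino acids, Bcat1 had the largest log2 fold change. Bcat1 (ENSMUSG00000030268, chromosome 6 from 144993835 to 145076184, minus strand), the cytosolic branched-chain aminotransferase, had 11.6, 18.7, 19.3 and 26.8 CPM in vehicle libraries and 32.7, 47.5, 35.6 and 49.5 CPM in NAM/PN libraries. All NAM/PN libraries were above all vehicle libraries. Its log2 fold change was 1.11 (standard error 0.33, 2.16-fold with a 95% interval of 1.34 to 3.48), with an unadjusted p of 0.00303 and an adjusted p of 0.129 in edgeR, and no alternative brought it past the threshold (adjusted p between 0.0742 and 0.528).

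Bcat2, the mitochondrial form, was at 8.87 ± 5.95 CPM in vehicle libraries and 6.75 ± 1.66 CPM in NAM/PN libraries (SD over 4 libraries each), with a fold change on the log2 scale of -0.39 with a standard error of 0.77. Of 5 genes of branched-chain keto acid breakdown, 5 were tested and 0 were called, with a median log2 fold change of -0.08. The aspartate aminotransferases Got1, in the cytosol, and Got2, in mitochondria, belong to the malate-aspartate shuttle. Got2 was the member with the highest CPM, at 281 ± 39.6 in vehicle libraries and 316 ± 19.1 in NAM/PN libraries, and Got1 was at 71.9 ± 17.3 and 74.8 ± 8.71 CPM (SD, n = 4 each). Their 95% intervals, from -0.16 to 0.51 for Got2 and from -0.40 to 0.52 for Got1 on the log2 scale, excluded a 2-fold change in either direction.

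The alanine aminotransferase Gpt2, of mitochondria, was at 25.7 ± 12.6 CPM in vehicle libraries and 16.1 ± 8.98 CPM in NAM/PN libraries, lower in 3 of 4 pools (log2 fold change -0.67, standard error 0.50, edgeR adjusted p = 0.806). The cytosolic Gpt had between 0 and 5.12 CPM in each library, and its interval spanned more than a 2-fold change in both directions.

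In the neighbouring list of glutamate, proline and malate-aspartate genes, 15 of 15 were tested and 0 were called, with 10 above 0 and a median of 0.12. Glul and Glud1 were named after their values were seen. The glutamine synthetase Glul had a log2 fold change of 0.72 (edgeR adjusted p = 0.199), and the glutamate dehydrogenase Glud1 had -0.44 (adjusted p = 0.339). For both genes the conditions were apart, with no overlap between libraries.

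Cystathionine γ-lyase, Cth, which releases cysteine, was at 3.99 ± 1.98 CPM in vehicle libraries and 7.17 ± 3.88 CPM in NAM/PN libraries, higher in all 4 pools but with overlapping groups (log2 fold change 0.84, standard error 0.92). Csad, of taurine synthesis, was at 22.8 ± 5.21 and 18.5 ± 7.82 CPM, with a log2 fold change of -0.30, and it overlaps Zfp740 on the other strand. Scly, which frees selenium from selenocysteine, was at 7.53 ± 5.55 and 8.61 ± 5.81 CPM, with a log2 fold change of 0.19 (SD, n = 4 each). None of these differences was larger than its standard error.

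Ornithine is a substrate of both Odc1, the first enzyme of polyamine synthesis, and Oat, which leads toward proline and glutamate. Odc1 was at 111 ± 49.1 CPM with vehicle, where replicate 3 had 43.7 CPM and the others 107 to 157 CPM, and at 121 ± 32.1 CPM with NAM/PN (log2 fold change 0.12). Without vehicle replicate 3 the log2 fold change of Odc1 was -0.15. Oat was at 59.7 ± 15.9 and 49.9 ± 10.1 CPM (SD, n = 4 each), with a log2 fold change of -0.26. For both genes the 95% interval lay within 2-fold.

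Alas1, which begins heme synthesis, was at 56.8 ± 18.5 CPM in vehicle libraries and 46.6 ± 8.37 CPM in NAM/PN libraries, a log2 fold change of -0.29. The subunits of serine palmitoyltransferase, the first enzyme of sphingolipid synthesis, had log2 fold changes of 0.07 for Sptlc1 (69.4 ± 4.77 and 72.5 ± 24.2 CPM) and 0.17 for Sptlc2 (27.3 ± 3.82 and 30.7 ± 9.64 CPM). Sgpl1, the lyase that cleaves sphingosine 1-phosphate, had 114 ± 35.8 and 119 ± 17.9 CPM (SD, n = 4 each) and a log2 fold change of 0.06. All 4 genes of heme and sphingolipid synthesis and breakdown had a 95% interval within 2-fold, and Sptlc1 and Sptlc2 varied more among the NAM/PN libraries than among the vehicle libraries.

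The cysteine desulfurase Nfs1, which supplies sulfur for iron-sulfur clusters, was higher with NAM/PN in all 4 pools, at 22.8 ± 5.34 and 30.5 ± 5.22 CPM (SD, n = 4 each; log2 fold change 0.42, standard error 0.32, edgeR adjusted p = 0.813), with overlapping groups. It overlaps Romo1 on the other strand, which had more counts. Mocos, the molybdenum cofactor sulfurase, failed the filter, with 67 counts in all, and had 0, 0, 0 and 0.327 CPM in vehicle libraries and 0.123, 0.975, 1.68 and 4.20 CPM in NAM/PN libraries. The kynurenine aminotransferases Kyat1 (between 0.711 and 8.56 CPM) and Kyat3 (between 0 and 6.16 CPM) had intervals that reached past 2-fold in both directions. Their log2 fold changes were -0.29 and 0.31, and in the paired fit with the pool as a replicate block they were 0.08 and -1.18.

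Ddc, the aromatic amino acid decarboxylase, was the only member of the amine and GABA group that was tested. It had 4.38, 7.20, 5.81 and 3.27 CPM in vehicle libraries and 0, 0, 2.28 and 2.34 CPM in NAM/PN libraries, so that the groups did not overlap. The log2 fold change was -2.14, with a standard error of 1.52 and an edgeR adjusted p of 0.788. Ddc passed the filter through its vehicle libraries, and its 95% interval, from -5.33 to 1.04, included no change.

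Glycogen phosphorylase releases glucose 1-phosphate from glycogen, and mammals carry a muscle, a brain and a liver isoenzyme, each with PLP bound. Pygm (ENSMUSG00000032648, chromosome 19 from 6384399 to 6398459, plus strand), the muscle isoenzyme, had 40.3, 56.5, 72.8 and 54.2 CPM in vehicle libraries and 7.14, 19.8, 7.16 and 17.7 CPM in NAM/PN libraries. Every NAM/PN library was below every vehicle library, and Pygm fell in all 4 pools. The log2 fold change was -2.11 (standard error 0.37, 4.31-fold lower with a 95% interval of 2.51 to 7.38, edgeR adjusted p = 0.00405). Leaving out single libraries or pools gave log2 fold changes from -2.38 to -1.76, and without pool 3 the adjusted p was 0.0518, just outside the threshold.

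Pygb, the brain isoenzyme (ENSMUSG00000033059, chromosome 2 from 150786735 to 150831758, plus strand), had 16.7, 26.1, 23 and 30.8 CPM in vehicle libraries and 19.2, 26.2, 42.2 and 30.5 CPM in NAM/PN libraries. Its log2 fold change was 0.29 (standard error 0.34, edgeR adjusted p = 0.916). The ratio of Pygm to Pygb counts within a library was 2.41, 2.16, 3.16 and 1.76 in vehicle libraries and 0.374, 0.756, 0.171 and 0.579 in NAM/PN libraries. The ratio was 5.67-fold lower with NAM/PN, lower in 4 of 4 pools (two-sided exact permutation test over 70 assignments, p = 0.0286, the smallest that 4 against 4 libraries allow, and 0.172 after Benjamini-Hochberg adjustment over 6 ratios).

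Markers of differentiating myocytes moved with Pygm. Of the 8 genes of the myocyte list, 7 were lower in all 4 pools, the exception being Ckm with 0 counts in both libraries of pool 3, 6 of 8 were called lower, and their median log2 fold change was -2.29. Summed over the list, CPM was between 1225 and 2503 in vehicle libraries and between 174 and 513 in NAM/PN libraries. Myog, a transcription factor of differentiation, was at 929 ± 390 CPM in vehicle libraries and 199 ± 74.3 CPM in NAM/PN libraries (SD, n = 4 each; log2 fold change -2.22, edgeR adjusted p = 0.000232). In bulk RNA, fewer cells of a type and less RNA per cell cannot be told apart, and the part of the myocyte genes in the difference of Pygm was not tested. Of 13 genes of glycogen synthesis and breakdown listed as partners, 12 were tested and 0 were called. Of the 12, 6 were above 0 and 6 below, with log2 fold changes from -0.55 to 0.43.

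**Figure D4:**
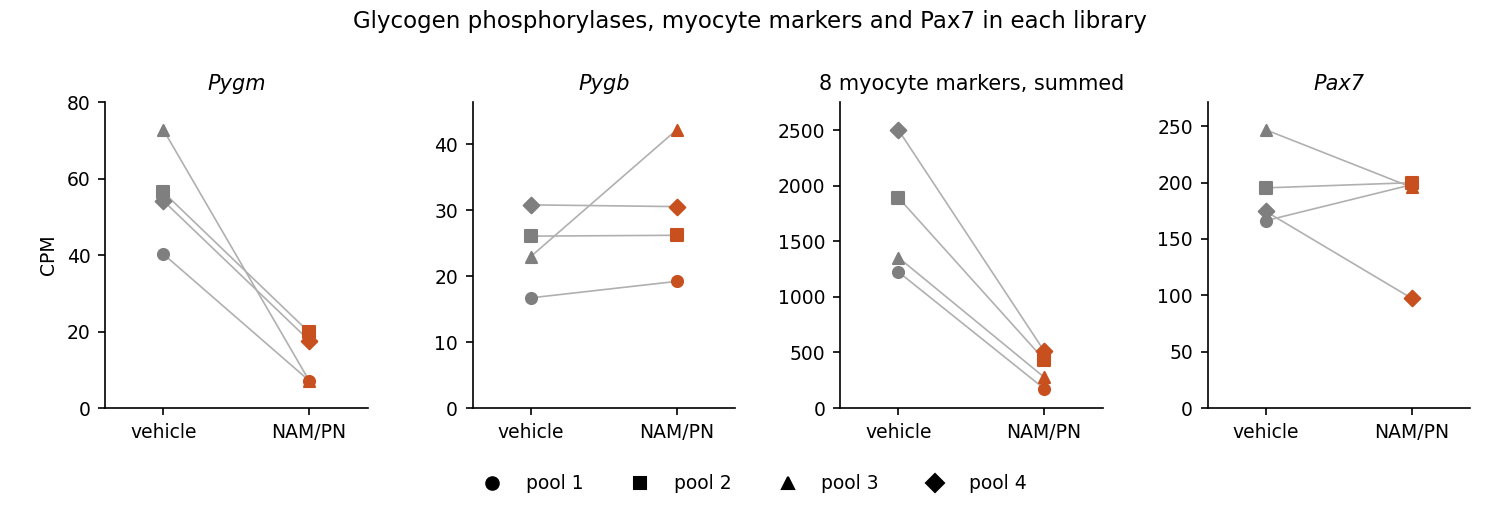
CPM of Pygm, Pygb, the sum of 8 myocyte markers and Pax7 in each library, with the libraries of a pool joined by a line. Pygm and the myocyte sum are lower with NAM/PN in all 4 pools, and Pygb and Pax7 have overlapping groups.

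The stretches from 250 bases before to 50 bases after the start of Pygm and of Pygb, from RefSeq on GRCm38.p6, are shown because these isoenzymes of the same reaction had different log2 fold changes. Capitals mark each match to the E-box CANNTG, the motif that myogenic basic helix-loop-helix factors such as MYOD1 and MYOG bind, which reads as the same motif on both strands.
Pygm, chr19:6384158-6384457, plus strand: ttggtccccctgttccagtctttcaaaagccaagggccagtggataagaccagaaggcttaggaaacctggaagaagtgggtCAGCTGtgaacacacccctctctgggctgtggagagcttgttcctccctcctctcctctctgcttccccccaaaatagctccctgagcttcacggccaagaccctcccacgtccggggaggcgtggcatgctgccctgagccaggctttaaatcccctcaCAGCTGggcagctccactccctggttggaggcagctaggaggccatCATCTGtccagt
Pygb, chr2:150786546-150786845, plus strand: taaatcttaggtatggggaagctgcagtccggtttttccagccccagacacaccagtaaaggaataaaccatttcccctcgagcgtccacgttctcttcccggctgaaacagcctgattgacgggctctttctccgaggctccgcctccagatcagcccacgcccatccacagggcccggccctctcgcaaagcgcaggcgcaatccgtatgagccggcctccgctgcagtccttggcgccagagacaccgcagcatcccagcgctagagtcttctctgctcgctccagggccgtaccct
The Pygm stretch holds 3 E-boxes, which begin 168 and 8 bases before the start and at base 39 after it, and the Pygb stretch holds 0. The upstream pair in Pygm have the form CAGCTG, which overlaps CANNTG by definition. Of 32851 such stretches in the genome, 72.3% hold CANNTG and 16.3% hold CAGCTG. Among the 32 members with an entry, 20 hold CANNTG and 7 hold CAGCTG in at least 1 of their starts. The motif TGATGNAA, the core of the composite element of ATF4, a regulator of amino acid metabolism, was found on either strand in 1 member, Got1, and in 3.97% of all stretches. These matches are descriptions of letters in a window and say nothing of binding.

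Ratios within a library do not depend on the scaling between libraries, and 6 pairs of related enzymes were compared in this way. With all libraries, none but Pygm to Pygb had an exact p under 0.05. The ratio of Shmt2 to Shmt1 was 2.07, 3.92, 4.20 and 4.60 in vehicle libraries and 2, 2.15, 2.32 and 4.53 in NAM/PN libraries, lower in 4 of 4 pools but overlapping (two-sided exact permutation p = 0.40, adjusted 0.743). Bcat1 to Bcat2 was 1.53, 1.62, 14.9 and 1.77 in vehicle libraries and 3.63, 7.67, 5.15 and 9.73 in NAM/PN libraries, higher in 3 of 4 pools (exact permutation p = 0.229, adjusted 0.687), and the value of 14.9 in vehicle replicate 3 came with a Bcat2 level of 1.24 CPM. With all libraries this ratio differed by 1.11 on the log2 scale, and without vehicle replicate 3 by 1.90 (two-sided exact permutation test, p = 0.0857 after adjustment over 6 ratios). The ratios of Pdxk to Pdxp, Got2 to Got1 and Kyat3 to Kyat1 differed by 0.32, 0.10 and -0.95 on the log2 scale, with exact permutation p-values of 0.571, 0.686 and 0.743 over 70 assignments each. Pygl to Pygb was not computed, since Pygl failed the filter.

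**Figure D5:**
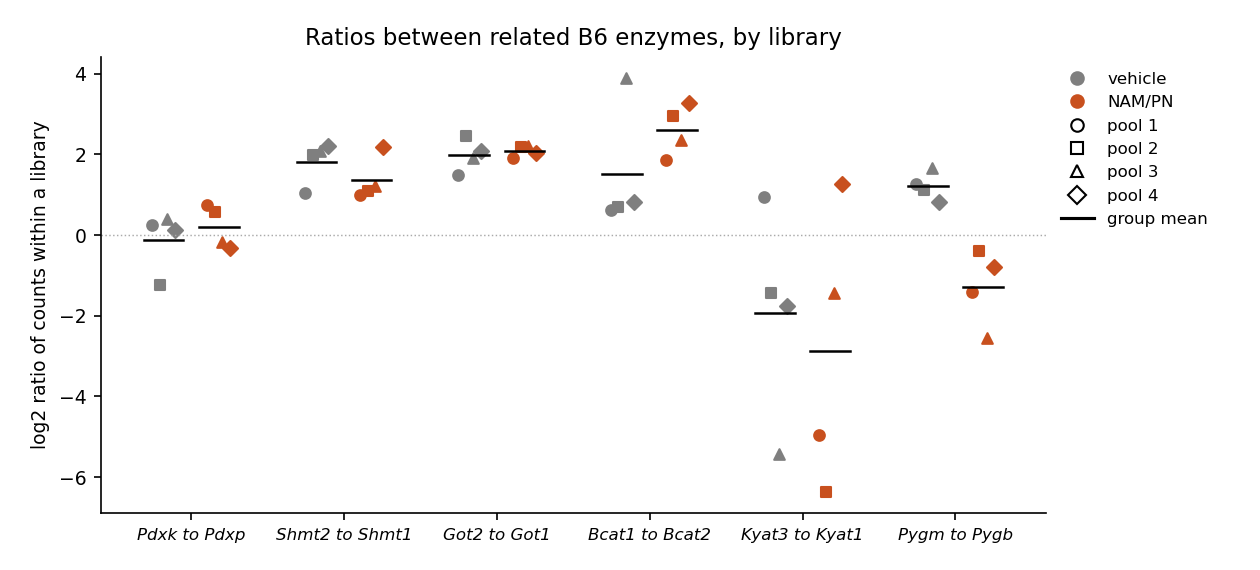
Log2 ratio of the counts of related B6 enzymes within each library, for 6 pairs, with vehicle in grey, NAM/PN in orange, a marker shape for each pool and a line at the mean of each condition. The ratio of Pygm to Pygb is above 0 in the 4 vehicle libraries and below 0 in the 4 NAM/PN libraries, and the other pairs overlap between conditions.

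Across all 11 lists of partner genes, which were chosen with earlier results of these data known, 128 genes were listed and 106 were tested. By edgeR 0 were called, while at an unadjusted p under 0.05 9 were higher and 1 was lower (8.49% and 0.943% of those tested, against 3.96% and 5.32% of all genes), and DESeq2 called 1. Their median log2 fold change was 0.05. Among the 9 were Phgdh, Glul, Cers2, Cers4 and Mocs2. Cers4, a ceramide synthase named after its values were seen, had the largest log2 fold change of the 9 (1.86, standard error 0.63, edgeR adjusted p = 0.234). It had 0.592, 4.47, 15.8 and 6.20 CPM in vehicle libraries and 19.2, 21.9, 33.5 and 24 CPM in NAM/PN libraries. In edgeR it was called without vehicle replicate 3 (2.70, adjusted p = 0.0423) and without the filter on low counts (1.85, adjusted p = 0.0351). No other alternative called Cers4, and with the replicate block its adjusted p was 0.0786. The other list of PLP enzymes that are not members had 18 genes, of which 6 were tested and 0 were called, so that these enzymes were mostly below the filter in MuSCs.

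The spread between libraries was described by the biological coefficient of variation that edgeR gives each gene, beside the median of the 1000 tested genes nearest in level. It was 0.434 for Pdxk against 0.411, 0.206 for Psat1 against 0.206, and 0.209 for Shmt2 against 0.202. Pygm was at 0.36 against 0.328, Gpt2 at 0.495 against 0.412 and Odc1 at 0.297 against 0.22. Over the tested members the coefficient ran from 0.182 for Got2, the member with the highest CPM, to 1.58 for Kyat3, the one with the lowest.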

How the data were processed

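The values the authors deposited are raw read counts per gene, with no normalization. Per the study's methods, QuantSeq 3′ libraries were aligned to GRCm38 with STAR and counted with HTSeq, for which the submitters' processing notes give version 2.16.2, and the annotation release and strand setting are not given in the sources used here. In this re-analysis, genes were filtered by edgeR's filterByExpr (minimum count 10, minimum total 15), scaled with TMM and compared by glmQLFit and glmQLFTest with treatment as the term, in R 4.3.3 with edgeR 4.0.16 and limma 3.58.1. P-values were adjusted over all 12060 tested genes by Benjamini-Hochberg, with a threshold of 0.05. Intervals are at 95%. Log2 ratios used (count + 0.5), with two-sided exact permutation tests. Totals were 6472484 to 10163101 counts per library, and no pair of one condition agreed within counting noise (lowest chi-square per degree of freedom 22.6). This value was 70.9 to 91.2 for pairs with vehicle replicate 3 and 71.5 to 84.4 for pairs with NAM/PN replicate 4. For the remaining pairs it was 22.6 to 29.7.

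The pool number pairs libraries, since it names the same mice, although deviations from the condition means correlated by only -0.0332 to 0.0313 across genes within pools. Alternatives were that block, DESeq2 1.42.0, upper-quartile scaling, no filter, a robust fit, another threshold, another added count, and leaving out each library or pool. Members, partner lists and markers were chosen with earlier results of these data known. The values of all 8 libraries, the log2 fold change, its standard error and the adjusted p were given for Pdxk, Pdxp, Plpbp, called members and those with an unadjusted p under 0.05. Gene names came from GENCODE M21 on GRCm38 (55141 of 55487 identifiers), with Python 3.11.15 and matplotlib 3.10.9 for figures. The gene test was tested on simulated data. Gcat has a second identifier, which had 0 counts. Results of some partner genes are not reported here.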

Additional observations from a re-analysis of the deposited data

Results flagged for a closer look

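In 70 groups of 4 libraries (the tested members and the log2 ratios in each condition), 6 had a library that stood apart by Dixon's test (the gap to its nearest neighbour as a share of the whole range), and chance gives about 1 in 20 groups. Shmt2 was at 366.9 CPM in NAM/PN replicate 4 and between 216.9 and 241.3 CPM in the other NAM/PN libraries. Scly was at 15.81 CPM in vehicle replicate 3 (others 4.026 to 5.328 CPM). Got1 was at 97.69 CPM in vehicle replicate 1 (others 60.8 to 65.18 CPM). Gpt2 was at 6.948 CPM in vehicle replicate 2 (others 30.91 to 34.06 CPM). The log2 ratio of Pdxk to Pdxp was -1.243 in vehicle replicate 2 (others 0.1251 to 0.4041), and that of Bcat1 to Bcat2 was 3.898 in vehicle replicate 3 (others 0.6108 to 0.8213). Without the library that stood apart, the log2 fold change was 0.23 for Shmt2, 0.84 for Scly, 0.24 for Got1 and -0.98 for Gpt2. In the same way, the log2 ratio of Pdxk to Pdxp differed by -0.060 between conditions and that of Bcat1 to Bcat2 by 1.90.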

How the results depend on the processing

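Intervals reached 2-fold for 19 of the 29 tested members. With 4 pools of mice, small changes could not be resolved in these libraries, least of all for members under 10 CPM. The count of members called was 1, and it was 2 with DESeq2 (Pygm and Psat1), 3 without the filter on low counts (Pygm, Psat1 and Shmt1), 2 at a threshold of 0.10, and from 0 (without pool 3) to 2 (without vehicle replicate 1) when libraries or pools were left out. Over all genes the count was 154, and it was 289 with DESeq2, 366 without the filter, 244 at a threshold of 0.10, and from 42 (without pool 2) to 177 (without NAM/PN replicate 4) when libraries or pools were left out, with 65 to 94 without vehicle replicate 2 or 4, NAM/PN replicate 1, or pool 1 or 4. Partner genes called were 0, and 1 with DESeq2, 1 without the filter (Cers4), and 0 to 1 when libraries or pools were left out. The causes were not tested. With the pool as a replicate block 156 genes and 1 member, Pygm (log2 fold change -2.22, adjusted p = 0.00336), were called, and the block changed no call of a member, partner gene or ratio at the adjusted threshold. At an unadjusted p under 0.05, it gave 6 members in place of 5 and 8 partner genes in place of 10. Scaling moved the median of all genes by less than 0.1 on the log2 scale.

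Directions of low or near-zero members turned. With the replicate block the log2 fold change of Kyat1 was 0.078 and that of Kyat3 -1.18. Leaving out each library or pool, log2 fold changes ranged from -0.071 to 0.46 for Plpbp, -0.50 to 0.34 for Srr, -0.45 to 0.84 for Scly, -0.021 to 0.24 for Got1, -0.31 to 1.14 for Gpt, -0.77 to 0.11 for Bcat2, -0.15 to 0.33 for Odc1, -0.71 to 0.15 for Kyat1, -1.31 to 1.21 for Kyat3, -0.19 to 0.23 for Sptlc1, -0.0084 to 0.32 for Sptlc2, -0.17 to 0.21 for Sgpl1 and -0.33 to 0.016 for Pax7, none of them called. The log2 ratios ranged from -0.067 to 0.26 for Got2 to Got1, -2.33 to 0.22 for Kyat3 to Kyat1 and -0.060 to 0.49 for Pdxk to Pdxp. By sign changes within pools, as a replicate block, the smallest p that 4 pools allow is 0.125, so that no ratio could pass. Alternatives for the partner genes, other than the block and DESeq2, were chosen after seeing the data.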
